A study of Mus musculus with 2 samples.

Results

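The genes described here are 9 T cell regulators: Pdcd1, Tox, Lag3, Tigit, Ctla4, Havcr2, Icos, Btla and Cd226. They were selected from the 24775 genes listed for 2 single-cell RNA libraries of mouse tumour-draining lymph nodes. The choice was by name and not by a limit on any measured value, but earlier results of these data were known. All 9 had molecules in both libraries. All but Tox encode surface receptors that raise or restrain the signal of an activated lymphocyte, whereas Tox encodes a nuclear protein of the HMG-box family that is needed to keep chronically stimulated CD8 T cells in their exhausted state.

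A T cell that meets antigen receives co-stimulation through CD28 and ICOS. It also gains inhibitory receptors, among them CTLA-4, PD-1 (encoded by Pdcd1), LAG-3, TIM-3 (encoded by Havcr2), TIGIT and BTLA, which dampen the response or restrict access to shared ligands. CTLA-4 competes with CD28 for CD80 and CD86, and TIGIT competes with the activating receptor CD226 for CD155. Regulatory T cells, which restrain other T cells, carry CTLA-4 and ICOS constitutively, whereas naive T cells carry little of most inhibitory receptors. Several of these receptors are targets of checkpoint antibodies in cancer, and the tumour-draining node is a place where T cells are primed against tumour antigens.

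Inguinal nodes draining a tumour were taken from WT mice (13 nodes pooled) and from mice without the autophagy gene Atg5 in the lymphatic endothelium, whose cells (LECs) line the lymph sinuses (9 nodes pooled). Viable Ter119-negative immune cells (CD45+ CD31-) and endothelial cells (CD45- CD31+) were sorted and mixed, so that each genotype gave 1 library of pooled animals. The deletion is in LECs and not in the T cells described here. The driver of the deletion, the tumour and the ages of the mice are not given in the sources used here, and both sexes were mixed in each pool. The counts come from transcript 3' ends and cannot show an internal deletion, so the second library is called KO-labelled throughout.

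Of 23649554 and 23089918 molecules counted by unique molecular identifiers (UMIs) in the WT and KO-labelled libraries, the analysis kept 3851 and 4136 cells with medians of 3515 and 3348 UMIs. The libraries shared 14 barcodes among these cells. There was 1 library per genotype, so no difference between genotypes could be tested, and pool, sex and genotype cannot be told apart. Levels are given as UMIs of a gene per 1000000 UMIs of all cells of a class, mitochondrially encoded genes left out (CPM), with exact Poisson 95% intervals, and ratios are KO-labelled over WT with exact conditional binomial 95% intervals. These intervals, and the Clopper-Pearson intervals of shares, take in counting error alone. The spread over mice and over pools is unknown.

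Cells were grouped by clusters formed without the 9 genes, and each class name means only resemblance to a marker list. Conventional CD4 cells numbered 383 and 724 in the WT and KO-labelled libraries, regulatory T cells 70 and 126, naive CD8 cells 359 and 524 and memory-like CD8 cells 70 and 141. NK-like cells numbered only 7 and 24. The defining markers were where the names place them: Foxp3, the lineage factor of regulatory T cells, stood at 935 and 939 CPM in that class against 12.2 and 13.8 CPM in conventional CD4 cells. Cd8a, a chain of the CD8 co-receptor, stood at 900.3 and 900.1 CPM in naive CD8 cells and was listed at 0 in NK-like cells of both libraries. Ccl5, a chemokine of memory CD8 cells, stood at 3136 and 3479.9 CPM in memory-like and 14.3 and 47.5 CPM in naive CD8 cells, and Ncr1, an NK cell receptor, at 490.2 and 615 CPM in NK-like cells. The conventional CD4 class held naive-type clusters (320 and 661 cells) and a cluster high in the memory and activation marker Cd44 (63 and 63 cells), in which Cd44 stood at 527 and 564 CPM against 49.4 and 53.6 CPM in the naive-type cells. The Cd44-high cluster also held Cd8a at 287 and 127 CPM, and the part of these CD8 transcripts in the results was not tested.

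Among T cells that could be assigned to a sex, the male share was higher in the WT library in each main class, with 80.3 and 59.8% in conventional CD4 cells and 84.1 and 65.4% in regulatory T cells. The summed level of immediate early and dissociation genes was 13535 and 11573 CPM in conventional CD4 cells and 10404 and 9408 CPM in regulatory T cells. B cell markers summed to 34.1 and 74.5 CPM in regulatory T cells against 9784 and 9449 CPM in B cells. The part of sex and of handling in the ratios below was not tested beyond the values from cells of 1 sex. Those values leave out every cell that could not be assigned to a sex.

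On the GRCm38 (mm10) assembly, Ctla4 (ENSMUSG00000026011.13, chr1:60887000-60915832, plus strand) and Icos (ENSMUSG00000026009.14, chr1:60977927-61000320, plus strand) lie next to Cd28 (chr1:60716800-60773359, plus strand), with gaps of 114 kb between Cd28 and Ctla4 and 62.1 kb between Ctla4 and Icos. Pdcd1 is at chr1:94038305-94052553 on the minus strand of the same chromosome. Tox (chr4:6686353-6991557, minus strand) spans 305 kb, against 7.34 to 33.4 kb for the other members placed here. Lag3 is at chr6:124904361-124911705 (minus strand), Havcr2 at chr11:46454935-46481255 (plus strand), Tigit at chr16:43648867-43664146 (minus strand) and Btla at chr16:45224315-45257670 (plus strand). Positions are from GENCODE, in which Ctla4 and Icos each overlap 1 unit on the same strand (Rpl18-ps1 and Gm37039) and Tox overlaps Gm11802 on the other. How reads in such overlaps were counted is not given in the sources used here. Reads in introns were counted, so a long gene such as Tox can gather more UMIs than a short one at the same transcript number, and levels are compared here between classes and not between genes.

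The promoters of the members whose regulatory T cell levels the results below turn on are shown from RefSeq (GRCm38.p6), each from 250 bases before to 50 bases after the annotated start, 5' to 3' on the gene's strand. They are Ctla4 (chr1:60908775-60909074, plus), Tigit (chr16:43664135-43664434, minus) and Pdcd1 (chr1:94052504-94052803, minus). RefSeq and GENCODE place the Ctla4 start differently. The Ctla4 window lies inside the GENCODE gene given above (chr1:60887000-60915832), and the gap to Cd28 is measured from the GENCODE start. RefSeq promoters were listed for 5 members. Capitals mark each match, on either strand and with any overlap, to the NFAT core GGAAA, the AP-1 motif TGANTCA, the forkhead motif GTAAACA or the Runx motif AACCACA, the binding letters of factors active in stimulated or regulatory T cells.
Ctla4: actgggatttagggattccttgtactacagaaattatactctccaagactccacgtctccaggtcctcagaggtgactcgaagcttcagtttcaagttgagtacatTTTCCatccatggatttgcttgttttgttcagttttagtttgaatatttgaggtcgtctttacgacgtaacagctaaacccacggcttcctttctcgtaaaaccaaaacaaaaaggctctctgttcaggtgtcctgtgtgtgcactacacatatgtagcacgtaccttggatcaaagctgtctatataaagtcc
Tigit: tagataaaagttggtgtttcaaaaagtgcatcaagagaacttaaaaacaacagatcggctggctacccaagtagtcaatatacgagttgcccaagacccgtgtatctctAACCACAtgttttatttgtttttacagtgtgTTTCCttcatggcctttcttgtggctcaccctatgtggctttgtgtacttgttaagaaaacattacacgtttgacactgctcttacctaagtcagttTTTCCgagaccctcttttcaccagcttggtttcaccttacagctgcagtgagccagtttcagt
Pdcd1: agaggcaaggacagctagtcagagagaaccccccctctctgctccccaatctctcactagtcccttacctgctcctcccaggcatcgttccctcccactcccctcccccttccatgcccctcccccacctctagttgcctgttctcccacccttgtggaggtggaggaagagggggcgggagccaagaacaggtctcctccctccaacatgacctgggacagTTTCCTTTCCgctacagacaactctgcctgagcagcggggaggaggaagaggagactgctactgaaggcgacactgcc
The NFAT core occurred 1 time in the Ctla4 window and 2 times in both the Tigit and the Pdcd1 window. In the Pdcd1 window these matches lie side by side. The Tigit window also held 1 Runx match. Of the listed promoters not shown, the Btla window held 0 NFAT cores and 1 Runx match. The Havcr2 window held 0 NFAT cores, 1 AP-1 match and 1 Runx match. Of 32851 listed mouse promoters of this length, 61.3% hold the NFAT core, 5.27% the Runx motif, 7.81% the AP-1 motif and 3.65% the forkhead motif. A match is a description of these letters, and a motif absent from a window says nothing about the factor.

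**Figure D1:**
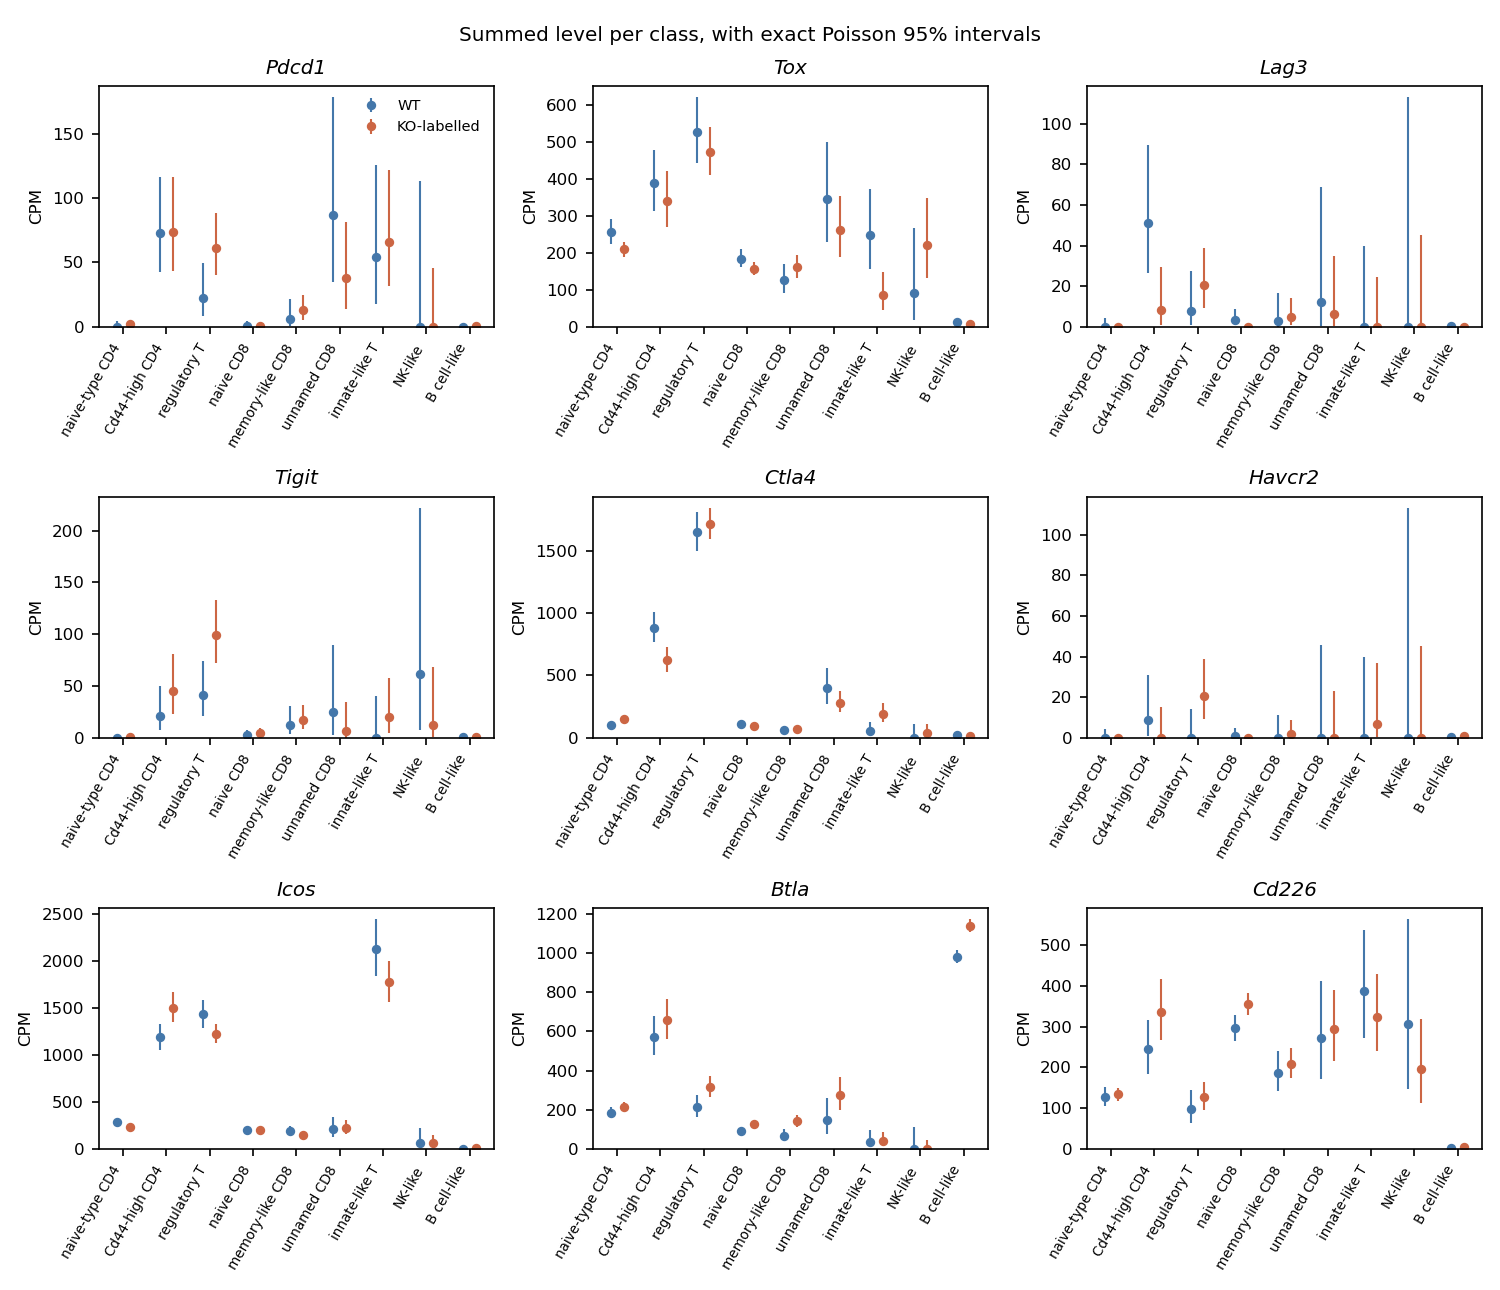
Level of each gene (CPM, linear axis from 0, 1 panel per gene) in 9 cell classes of the WT (blue) and KO-labelled (orange) libraries, with bars for exact Poisson 95% intervals. Ctla4 is highest in regulatory T cells, Btla in B cells and Icos in innate-like T cells in both libraries, and the NK-like intervals are wide because that class has 7 WT cells.

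Ctla4, the inhibitory receptor that takes CD80 and CD86 from CD28, was most abundant in regulatory T cells. Its level there was 1650.1 CPM among WT cells (95% interval 1499 to 1812, 436 UMIs) and 1711 CPM among KO-labelled cells (1592 to 1838, 758 UMIs). Conventional CD4 cells held 264 CPM among WT cells (95% interval 235 to 295, 302 UMIs) and 199 CPM among KO-labelled cells (181 to 218, 446 UMIs), naive CD8 cells 106 and 97.6 CPM and memory-like CD8 cells 63.1 and 66.7 CPM in the WT and KO-labelled libraries. The regulatory T cell intervals lay above those of every other T cell class in both libraries. Regulatory over conventional CD4 cells, the ratio was 6.26 (5.39 to 7.27) among WT and 8.59 (7.64 to 9.68) among KO-labelled cells. A Ctla4 UMI was found in 92.9% and 88.9% of regulatory T cells, 25.1% and 22.9% of conventional CD4 cells and 17.3% and 18.7% of naive CD8 cells. In B cells, which serve as the background because they should lack the gene, the shares were 3.85% and 3.27% at median depths of 2709 and 2703 UMIs, against 3570 and 3216 UMIs in regulatory T cells. With each cell thinned to 1000 UMIs the regulatory T cell shares were 65.7% and 67.5% and the B cell shares 1.702% and 1.15%.

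Between the libraries Ctla4 in regulatory T cells differed by less than counting error, with a ratio of 1.04 (0.921 to 1.17). In naive CD8 cells the ratio was 0.922 (0.7301 to 1.17) and in memory-like CD8 cells 1.06 (0.612 to 1.88). Conventional CD4 cells as a whole had a ratio of 0.755 (0.651 to 0.877), but of its subsets, described below, only the Cd44-high cluster had a ratio under 1. Of the UMIs of Ctla4 and Cd28 together, Ctla4 made up 76.2% (72.5 to 79.7) among WT and 76.95% (74.2 to 79.6) among KO-labelled cells in regulatory T cells. The same share was 35.3% and 34.8% in naive CD8 cells and 20.4% and 22.5% in memory-like CD8 cells. Cd28 itself, the co-stimulatory receptor, stood at 515 and 512 CPM in regulatory T cells and 459 and 454 CPM in conventional CD4 cells, so the high share in regulatory T cells came with more Ctla4 and not with less Cd28.

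Icos, the co-stimulatory receptor of activated T cells, was at 1431 CPM among WT cells (95% interval 1290.0 to 1582, 378 UMIs) and 1224 CPM among KO-labelled cells (1123 to 1331, 542 UMIs) in regulatory T cells. Conventional CD4 cells held 472 and 369.7 CPM, naive CD8 cells 201 and 196 CPM, memory-like CD8 cells 189 and 149 CPM and NK-like cells 61.3 and 61.5 CPM. The order of classes was the same in both libraries, and only the neighbours from naive CD8 cells downwards had overlapping intervals. Regulatory over conventional CD4 cells, the ratio was 3.03 (2.65 to 3.46) among WT and 3.31 (2.96 to 3.69) among KO-labelled cells. Outside these classes, innate-like T cells, a small class (25 and 31 cells) led by genes of gamma-delta T cells such as the receptor constant gene Tcrg-C1 and the cytokine gene Il17a, held the highest levels, 2125 and 1775 CPM. That class was 2-fold above conventional CD4 cells for 3 of 7 members (Pdcd1, Icos and Cd226) in both libraries, against 6.17% of all genes. An Icos UMI was found in 77.1% and 68.3% of regulatory T cells against 0.296% and 0.769% of B cells.

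In regulatory T cells Icos was slightly lower in the KO-labelled library, at a ratio of 0.855 (0.749 to 0.978), and in naive CD8 cells the ratio was 0.974 (0.825 to 1.15). The direction in regulatory T cells turned in female cells, of which the WT library had 7, with a log2 ratio of 1.35.

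Tigit, an inhibitory receptor for CD155, was scarce and concentrated in regulatory T cells, at 41.6 CPM among WT cells (95% interval 20.8 to 74.5, 11 UMIs) and 99.3 CPM among KO-labelled cells (72.2 to 133, 44 UMIs). Conventional CD4 cells held 4.37 and 5.36 CPM, naive CD8 cells 2.52 and 4.85 CPM and memory-like CD8 cells 12.03 and 17.5 CPM. NK-like cells held 2 WT and 1 KO-labelled UMIs, too few to place them in the order. Regulatory over conventional CD4 cells, the ratio was 9.53 (3.05 to 35.00) among WT and 18.5 (9.63 to 38.6) among KO-labelled cells. A Tigit UMI was found in 9 of 70 and 25 of 126 regulatory T cells, against 1 B cell in each library. These shares were 12.9% (6.05 to 23.0) and 19.8% (13.3 to 27.9), with intervals that overlap.

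The Tigit level in regulatory T cells was higher in the KO-labelled library, at a ratio of 2.39 (1.21 to 5.12). It rests on 11 WT and 44 KO-labelled UMIs. The ratio depended on how the class was drawn: its log2 value was 1.25 as reported, 1.16 in male cells, and 0.33 when regulatory T cells were gated by marker UMIs per cell instead of clusters.

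Cd226, the activating receptor that competes with TIGIT, followed another order among T cells. Naive CD8 cells held 296 CPM among WT cells (95% interval 266 to 328, 352 UMIs) and 355 CPM among KO-labelled cells (328 to 383, 658 UMIs). Memory-like CD8 cells held 186 and 208 CPM, conventional CD4 cells 150.2 and 155 CPM and regulatory T cells, the lowest of these, 98.4 and 126 CPM, while NK-like cells held 306 CPM among WT cells (95% interval 147 to 563, 10 UMIs) and 197 CPM among KO-labelled cells (112 to 319, 16 UMIs). Naive CD8 over conventional CD4 cells, the ratio was 1.97 (1.64 to 2.38) among WT and 2.28 (2.003 to 2.61) among KO-labelled cells. A Cd226 UMI was found in 52.6% and 59.5% of naive CD8 cells, 24.3% and 28.6% of regulatory T cells and 0.222% and 0.705% of B cells. The ratio between libraries was 1.199 (1.05 to 1.37) in naive CD8 cells and 1.28 (0.794 to 2.13) in regulatory T cells.

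Of the UMIs of Tigit and Cd226 together, Tigit made up 29.7% (15.9 to 46.98) among WT and 44% (34.1 to 54.3) among KO-labelled cells in regulatory T cells. The share was 0.845% (0.175 to 2.45) among WT and 1.35% (0.619 to 2.55) among KO-labelled cells in naive CD8 cells. In memory-like CD8 cells it was 6.06% and 7.75% and in conventional CD4 cells 2.82% and 3.33%. The regulatory T cell intervals of both libraries lay above those of naive CD8, memory-like CD8 and conventional CD4 cells, and they overlapped each other. Among regulatory T cells, both UMIs were found in the same cell in 2 WT and 9 KO-labelled cells, and Tigit without Cd226 in 7 and 16.

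Pdcd1, which encodes PD-1, was nearly absent from naive cells. Naive CD8 cells held 1 UMI in each library (0.841 and 0.539 CPM), naive-type CD4 cells held 0 and 4 UMIs, and NK-like cells none. The count of 0 in the WT naive-type CD4 cells has an exact Poisson 95% interval that reaches 4.05 CPM. Regulatory T cells held 22.7 CPM among WT cells (95% interval 8.33 to 49.4, 6 UMIs) and 60.96 CPM among KO-labelled cells (40.2 to 88.7, 27 UMIs). Cd44-high CD4 cells held 72.8 CPM among WT cells (95% interval 42.4 to 117, 17 UMIs) and 73.5 CPM among KO-labelled cells (43.6 to 116, 18 UMIs), so that 17 of 17 and 18 of 22 Pdcd1 UMIs of conventional CD4 cells lay in that cluster. Memory-like CD8 cells held 6.01 and 12.7 CPM.

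A small unnamed CD8 cluster (15 and 25 cells), led by Slamf7, a lymphocyte surface receptor, and by the transcription factors Myb and Eomes, held 86.6 CPM among WT cells (95% interval 34.8 to 178, 7 UMIs) and 37.5 CPM among KO-labelled cells (13.8 to 81.6, 6 UMIs). Its Pdcd1 UMIs lay in 3 and 3 cells, and its Ctla4 level, 396 and 281 CPM, was above that of memory-like CD8 cells with a ratio of 6.27 (3.504 to 11.4) among WT and 4.22 (2.71 to 6.58) among KO-labelled cells. Tcf7, a factor of naive and stem-like T cells, stood at 1583 and 1219 CPM in it. Gzmk, a granzyme of memory CD8 cells, was at 10 WT and 0 KO-labelled UMIs. Of the members counted, it was 2-fold above naive CD8 cells in both libraries for 1 of 5 (Ctla4), against 3.68% of all genes, and above memory-like CD8 cells for 2 of 6 (Pdcd1 and Ctla4), against 4.15%. The mean score of memory-like markers in the cluster was 0.592, under the limit of 1.0 for that name. Its CD8 marker score of 1.301 was under the limit of 1.5 for naive CD8 cells.

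In regulatory T cells the Pdcd1 level was higher in the KO-labelled library, at a ratio of 2.68 (1.09 to 7.95) from 6 and 27 UMIs. The shares of regulatory T cells with a Pdcd1 UMI overlapped, at 8.57% (3.21 to 17.7) and 11.9% (6.82 to 18.9), against 0% and 0.0641% of B cells. In the class gated by marker UMIs the log2 ratio of Pdcd1 was 0.72, against 1.42 as reported. The ratio in Cd44-high CD4 cells was 1.01 (0.491 to 2.09).

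Tox was present in every T cell class. Regulatory T cells held 526 CPM among WT cells (95% interval 442 to 621, 139 UMIs) and 472 CPM among KO-labelled cells (410.1 to 540.4, 209 UMIs), conventional CD4 cells 283 and 224 CPM, naive CD8 cells 184 and 157 CPM and memory-like CD8 cells 126 and 160.4 CPM. Regulatory over conventional CD4 cells, the ratio was 1.86 (1.51 to 2.27) among WT and 2.11 (1.79 to 2.48) among KO-labelled cells. A Tox UMI was found in 26.5% and 29.96% of naive CD8 cells against 0.962% and 1.15% of B cells, and naive CD8 cells were not below memory-like CD8 cells beyond counting error in either library. Naive CD8 cells thus held Tox at these shares and Pdcd1 at 1 UMI in each library. Barcodes of 10 to 99 UMIs, which are below the cell threshold, held Tox at 280.2 and 440.2 CPM, while B cells held 12.6 and 7.97 CPM. The ratio between libraries was 0.7905 (0.686 to 0.912) in conventional CD4 cells, 0.897 (0.7204 to 1.12) in regulatory T cells and 0.852 (0.713 to 1.02) in naive CD8 cells. In conventional CD4 cells of 1 sex the log2 ratio was 0.03 in male and -0.05 in female cells, against -0.34 in all cells. Of the 383 WT cells only 179 were called male and 44 female, and of the 724 KO-labelled cells 220 and 148. The cells not assigned to a sex are in neither value, and their part in the ratio was not tested.

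Btla, an inhibitory receptor for HVEM, was highest in B cells, at 981 CPM among WT cells (95% interval 948 to 1014, 3436 UMIs) and 1139.9 CPM among KO-labelled cells (1108 to 1173, 4721 UMIs). Among T cells, conventional CD4 cells held 262 and 264 CPM, regulatory T cells 212 and 316 CPM, naive CD8 cells 88.3 and 126 CPM and memory-like CD8 cells 66.1 and 139.8 CPM. No Btla UMI was found in NK-like cells of either library, where 3 UMIs would have been 91.9 and 36.9 CPM. A Btla UMI was found in 78.4% and 83.7% of B cells, 37.3% and 37.98% of conventional CD4 cells and 1.72% and 2.14% of blood endothelial cells, the background class for this gene, at median depths of 4520 and 4683 UMIs.

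Btla had a ratio above 1, with an interval above 1, in 5 of the classes with 20 or more UMIs of it, and in myeloid-like cells both lay below 1. The ratio was 2.11 (1.31 to 3.54) in memory-like CD8 cells, 1.43 (1.13 to 1.82) in naive CD8 cells, 1.49 (1.09 to 2.07) in regulatory T cells and 1.16 (1.11 to 1.21) in B cells. In pDC-like cells it was 2.39 (1.18 to 5.27) and in myeloid-like cells 0.312 (0.151 to 0.609). Conventional CD4 cells had a ratio of 1.01 (0.875 to 1.16). B cell markers summed to 40.4 and 81.98 CPM in naive CD8, 34.1 and 74.5 CPM in regulatory T, 99.2 and 85.8 CPM in memory-like CD8 and 27.6 and 307 CPM in pDC-like cells, and barcodes of 10 to 99 UMIs held Btla at 431 and 576 CPM. The part of B cell transcripts and of free RNA in the Btla ratios was not tested. Within a sex, the naive CD8 log2 ratio was 0.72 in male and 0.56 in female cells. In memory-like CD8 cells it was 1.54 in male and 0.25 in female cells, and in regulatory T cells 1.07 and -0.11. For the gated memory CD8 cells it was 0.28.

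Lag3 and Havcr2, inhibitory receptors of chronically stimulated T cells, were close to the limit of detection in the main lymphocyte classes, with 33 and 13 UMIs over all 5 and both libraries. In regulatory T cells Lag3 had 2 WT and 9 KO-labelled UMIs and Havcr2 0 and 9. The Havcr2 UMIs of the KO-labelled regulatory T cells lay in 5 of 126 cells, against 2 of 1560 B cells. Lag3 in Cd44-high CD4 cells had 12 UMIs in 7 WT cells and 2 UMIs in 2 KO-labelled cells. Neither gene reached 20 UMIs in any of these classes.

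Both genes were found mainly outside the T cells. Lag3 was highest in plasmacytoid dendritic cell (pDC)-like cells, which are known to carry it, at 193 CPM among WT cells (95% interval 128 to 279, 28 UMIs) and 73.9 CPM among KO-labelled cells (39.3 to 126, 13 UMIs), with a ratio of 0.382 (0.182 to 0.763). Havcr2 was highest in myeloid-like cells, at 169 CPM among WT cells (95% interval 126 to 222, 51 UMIs) and 171 CPM among KO-labelled cells (132 to 217, 65 UMIs), with a ratio of 1.01 (0.689 to 1.49). These classes held 20 and 27 pDC-like and 43 and 55 myeloid-like cells. In the cycling class Havcr2 stood at 33.3 and 105 CPM, where markers of myeloid cells summed to 2218 and 4013 CPM, and the part of myeloid cells in that difference was not tested.

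Read over the members, regulatory T cells were the class of highest level among the 4 T cell classes for 5 of 9 genes in both libraries, namely Pdcd1, Tox, Tigit, Ctla4 and Icos. These are 5 of the 8 members with 20 or more UMIs in these classes, against 18.5% of all genes. For Pdcd1 in the WT library the intervals of regulatory T and conventional CD4 cells overlapped, and with at most 10% mitochondrial UMIs the direction turned, at a log2 ratio of regulatory T over conventional CD4 cells of -1.21 in place of 0.61. Regulatory T cells were at least 2-fold above conventional CD4 cells in both libraries for 3 of 8 members with 20 or more UMIs (Tigit, Ctla4 and Icos), against 4.36% of all genes. Against naive CD8 cells they were 2-fold above for 6 of 7, all but Cd226, against 6.42% of all genes. Conventional CD4 cells were 2-fold above naive CD8 cells for 3 of 7 (Ctla4, Btla and Pdcd1), against 3.06%. Naive CD8 cells were 2-fold above conventional CD4 cells for 0 of 7, against 1.58%, and memory-like over naive CD8 cells for 1 of 6 (Tigit), against 2.57%. A class against another is a description, since the classes come from the same cells.

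Cd44-high CD4 cells were also high in several members. They were at least 2-fold above naive-type CD4 cells in both libraries for 4 of 6 members, against 5.54% of all genes. For Icos the ratio was 4.09 (3.45 to 4.86) among WT and 6.52 (5.67 to 7.496) among KO-labelled cells, for Btla 3.15 and 3.05 and for Ctla4 8.37 and 4.21. For Pdcd1 the WT ratio was 22.1 with the naive-type count of 0 set to 3 UMIs, and the exact interval starts at 16.1. The KO-labelled ratio was 36.7 (12.1 to 149). None of 8 members was 2-fold higher in regulatory T than in Cd44-high CD4 cells in both libraries, against 2.79% of all genes. Regulatory T cells were above Cd44-high CD4 cells for Ctla4, with ratios of 1.87 and 2.76, and below them for Btla, with 0.369 and 0.4805. For Pdcd1 the ratio was 0.312 (0.101 to 0.829) among WT and 0.829 (0.4400 to 1.598) among KO-labelled cells. Maf, a transcription factor of helper and regulatory T cells, stood at 1044 and 1177 CPM and Foxp3 at 34.2 and 8.17 CPM in the Cd44-high cells, and Tox2, a relative of Tox, at 128 and 131 CPM against 3.29 and 1.504 CPM in naive-type cells.

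These subsets made up different parts of the conventional CD4 class in the libraries, and this changes what the class ratio shows. Cd44-high cells were 16.4% (12.9 to 20.5) of WT and 8.702% (6.75 to 11.00) of KO-labelled conventional CD4 cells. They held 68.2% and 34.1% of the Ctla4 UMIs of the class. In naive-type cells Ctla4 was 105 and 147 CPM in the libraries in that order, a ratio of 1.399 (1.11 to 1.78). In Cd44-high cells it was 882 and 621 CPM, a ratio of 0.704 (0.567 to 0.873). In the same naive-type cells Foxp3 stood at 6.58 and 14.5 CPM, Il2ra, a receptor chain of regulatory T cells, at 4.39 and 12.5 CPM, and Cd8a at 0 and 25 UMIs. Without the naive-type cells that had a UMI of any of these 3 genes, a setting chosen after seeing the data, the Ctla4 ratio was 1.37 (1.07 to 1.77) and that of Icos 0.812 (0.694 to 0.953). The naive-type cells were thus higher and the Cd44-high cells lower in the KO-labelled library, while the whole class had a ratio of 0.755 (0.651 to 0.877).

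Icos moved the other way, with a ratio of 0.796 (0.683 to 0.9296) in naive-type cells, 1.27 (1.08 to 1.49) in Cd44-high cells and 0.782 (0.701 to 0.874) in the whole class. Of the 4 naive-type clusters, Ctla4 was higher in the KO-labelled library in 3, with ratios from 0.617 to 2.01, and Icos was lower in 4, with ratios from 0.5599 to 0.941. Btla was higher in all 4, from 1.08 to 1.196, each with an interval that includes 1. Among the 4, 1 cluster was led in part by the heat shock genes Hspa1a and Hspa1b. The differences of ratios between subsets were not tested.

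**Figure D2:**
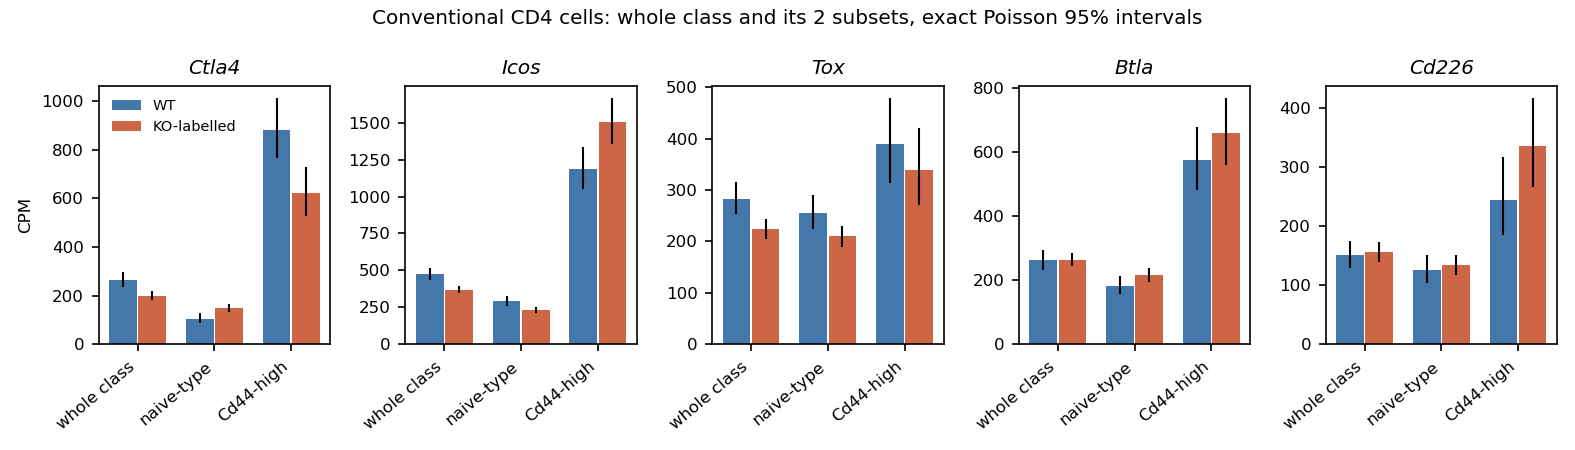
Level (CPM, bars from 0) of 5 members in the whole conventional CD4 class and in its naive-type and Cd44-high subsets, in the WT (blue) and KO-labelled (orange) libraries, with exact Poisson 95% intervals. For Ctla4 the KO-labelled bar is lower in the whole class (199 against 264 CPM) but higher in the naive-type subset (147 against 105 CPM).

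The counts of members past 1.5-fold between the libraries are read here against the share of all genes past it in the same class. In conventional CD4 cells 0 of 6 members with 20 or more UMIs were at least 1.5-fold higher and 1 (Pdcd1) lower, against 7.94% and 8.25% of all genes. That Pdcd1 ratio was 0.662 (0.335 to 1.33), an interval that includes 1, against 1.01 (0.491 to 2.09) in Cd44-high cells alone. Cd44-high cells, which held most Pdcd1 UMIs of the class, made up 20.4% and 10.9% of its UMIs. The part of this difference in the Pdcd1 ratio was not tested. In regulatory T cells 2 of 7 (Pdcd1 and Tigit) were higher and 0 lower, against 15.3% and 12.1%. In naive CD8 cells none of 5 passed in either direction, against 7.54% and 7.71%. In memory-like CD8 cells 1 of 5 (Btla) was higher and 0 lower, against 14.1% and 10.8%. In NK-like cells Tox was higher and Cd226 lower, the only 2 members counted there, against 26.4% and 21.3%, and both intervals include 1. In naive-type CD4 cells 0 of 5 passed in either direction, against 9.51% and 7.1%, and in Cd44-high cells 0 of 6, against 14.9% and 14.2%.

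The median log2 ratio of the members was -0.35 in conventional CD4 cells, 0.36 in regulatory T cells, -0.04 in naive CD8 cells and 0.16 in memory-like CD8 cells. The medians of all genes in the same classes were 0.00, 0.02, 0.01 and 0.03. Within the CD4 subsets the members' median was 0.08 in naive-type and 0.11 in Cd44-high cells.

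**Figure D3:**
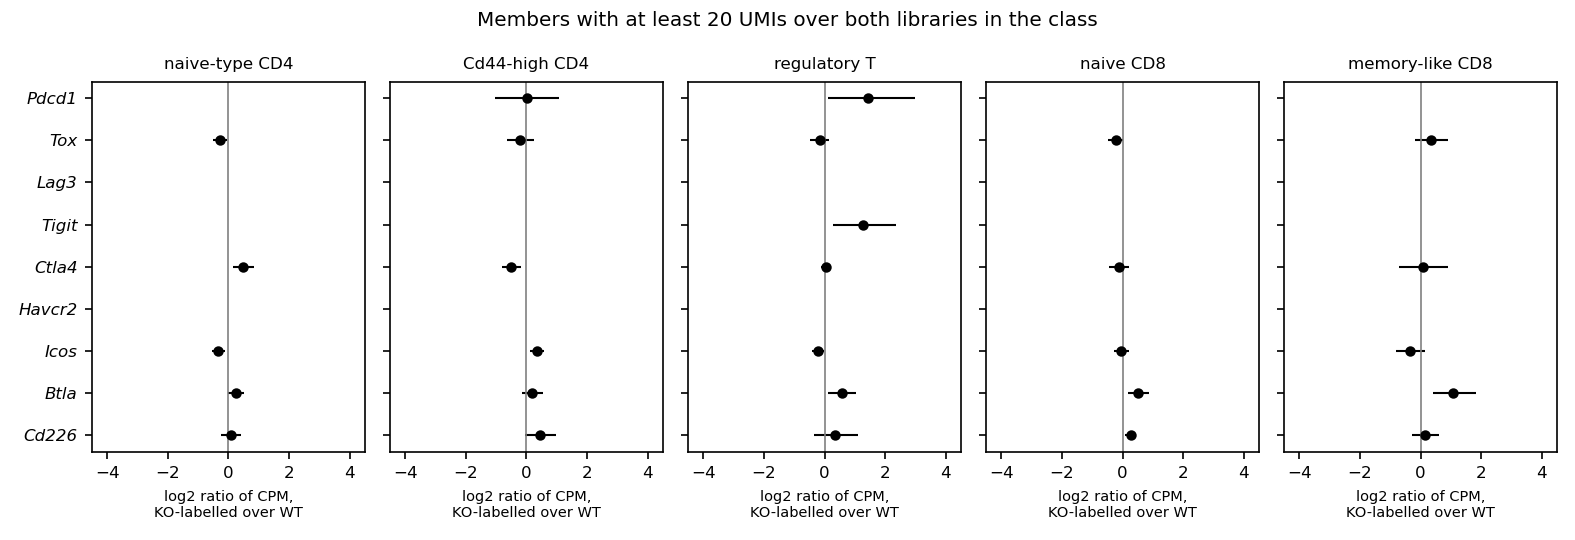
Log2 ratio of CPM, KO-labelled over WT, of each member with at least 20 UMIs over both libraries in 5 T cell classes, with exact conditional binomial 95% intervals and a grey line at 0. Btla lies to the right of the line in each of the 5 classes, with ratios of 1.18 (0.987 to 1.42) in naive-type and 1.15 (0.906 to 1.45) in Cd44-high CD4 cells, and the regulatory T cell ratios of Pdcd1 and Tigit have the widest intervals of that class.

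Other genes of the pathway were counted from fixed lists, with examples chosen after their values were seen. The shares of all genes past 1.5-fold, against which these counts are read, were 7.94% higher and 8.25% lower in conventional CD4, 15.3% and 12.1% in regulatory T, 7.54% and 7.71% in naive CD8 and 14.1% and 10.8% in memory-like CD8 cells. Of 26 other co-stimulatory and co-inhibitory receptors, 19 had 20 or more UMIs in regulatory T cells, and 2 were at least 1.5-fold higher and 1 lower in the KO-labelled library. Nt5e, which encodes the adenosine-producing enzyme CD73, had a ratio of 1.65 (1.21 to 2.28), and Tnfrsf9, the co-stimulatory receptor 4-1BB, a ratio of 0.658 (0.508 to 0.852). Cd2, Cd28 and Cd69 had the most UMIs in this list. For conventional CD4 cells 1 of 21 was higher and 2 were lower, in naive CD8 cells 0 and 2 of 17, and in memory-like CD8 cells 1 and 2 of 13.

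Of 21 transcription factors of T cell activation, memory and exhaustion, 4 of 18 were higher and 2 lower in regulatory T cells, beside 15.3% and 12.1% of all genes. Nr4a3, a factor induced by receptor signals, had a ratio of 2.11 (1.63 to 2.75) and Prdm1, which encodes Blimp-1, 2.09 (1.18 to 3.900), while Bhlhe40 stood at 0.589 (0.421 to 0.823). In memory-like CD8 cells 6 of 20 were higher and 2 lower, beside 14.1% and 10.8%, with Maf at 3.29 (1.61 to 7.56) and Id3, a factor of long-lived memory cells, at 0.418 (0.258 to 0.671). Among conventional CD4 cells 0 of 20 were higher and 3 lower. Tcf7 and Lef1, factors of naive T cells, and Nr4a1 had the most UMIs there, and Eomes stood at 0.3597 (0.189 to 0.671). Of 16 signalling genes below the receptors, 0 were higher and 1 (Ptpn6, the phosphatase SHP-1) was lower in regulatory T cells, at 0.6095 (0.397 to 0.936). In conventional CD4 cells 0 were higher and 2 (Csk and Cish) lower.

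Of 11 ligands of the members, 5 had 20 or more UMIs in regulatory T cells, of which 0 were lower and 1 was higher, namely Cd274, which encodes PD-L1, at 1.77 (1.14 to 2.82). For ligands in conventional CD4 cells 0 of 6 were higher and 1 lower.

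Of 11 effector genes, 2 of 8 counted in memory-like CD8 cells were higher and 0 lower in the KO-labelled library, beside 14.1% and 10.8% of all genes, namely Ifng, the cytokine interferon gamma, at 2.11 (1.28 to 3.64) and Fasl, the ligand of the death receptor Fas, at 1.87 (0.941 to 4.05). In regulatory T cells only 2 effector genes were counted, and Gzmb, which encodes granzyme B, had a ratio of 14.3 (2.33 to 589) from 1 WT and 24 KO-labelled UMIs. Of 7 naive and recirculation genes, all 7 were counted in regulatory T cells and 1 was higher, Il7r, the interleukin 7 receptor, at 1.67 (1.35 to 2.07). None of that list passed 1.5-fold in conventional CD4, naive CD8 or memory-like CD8 cells. Of 13 immediate early and dissociation genes, none was higher and 0, 1, 2 and 1 were lower in conventional CD4, regulatory T, naive CD8 and memory-like CD8 cells.

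UMIs of several members were detected in the same cell most often in regulatory T and Cd44-high CD4 cells among the larger T cell classes. UMIs of 3 or more of the 9 genes were found in 70% and 65.1% of regulatory T cells and 61.9% and 69.8% of Cd44-high CD4 cells in the WT and KO-labelled libraries. The shares were 17.2% and 14.5% in naive-type CD4 cells, 16.4% and 21.9% in naive CD8 cells, 22.9% and 17.7% in memory-like CD8 cells and 0.148% and 0.321% in B cells. With each cell thinned to 1000 UMIs the shares were 21.4% and 30.2% in regulatory T cells, 25.4% and 20.6% in Cd44-high CD4 cells and 1.39% and 3.24% in naive CD8 cells. The small unnamed CD8 and innate-like T classes also had high shares. With all UMIs these were 40% (16.3 to 67.7) and 56% (34.9 to 75.6) in unnamed CD8 cells and 36% (17.97 to 57.5) and 38.7% (21.9 to 57.8) in innate-like T cells. Thinned, they were 0% and 16% in unnamed CD8 and 4% and 9.68% in innate-like T cells. The intervals of these small classes overlap those of regulatory T cells of the same library at both depths, except for WT innate-like T cells with all UMIs.

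Ctla4 and Icos were found together in 52 of 70 WT and 79 of 126 KO-labelled regulatory T cells. Of the 9 and 25 regulatory T cells with a Tigit UMI, 9 and 24 also had a Ctla4 UMI. Of the 6 and 15 with a Pdcd1 UMI, 4 and 12 had a Tox UMI, and 2 and 7 a Tigit UMI. Of all regulatory T cells, 92.9% and 88.9% had a Ctla4 UMI, 58.6% and 48.4% a Tox UMI and 12.9% and 19.8% a Tigit UMI. In Cd44-high CD4 cells, 9 of 9 and 7 of 11 cells with a Pdcd1 UMI also had one of Ctla4. Of all cells of that cluster, 69.8% and 55.6% had a Ctla4 UMI. Whether these overlaps exceed the shares in all cells of the class was not tested.

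**Figure D4:**
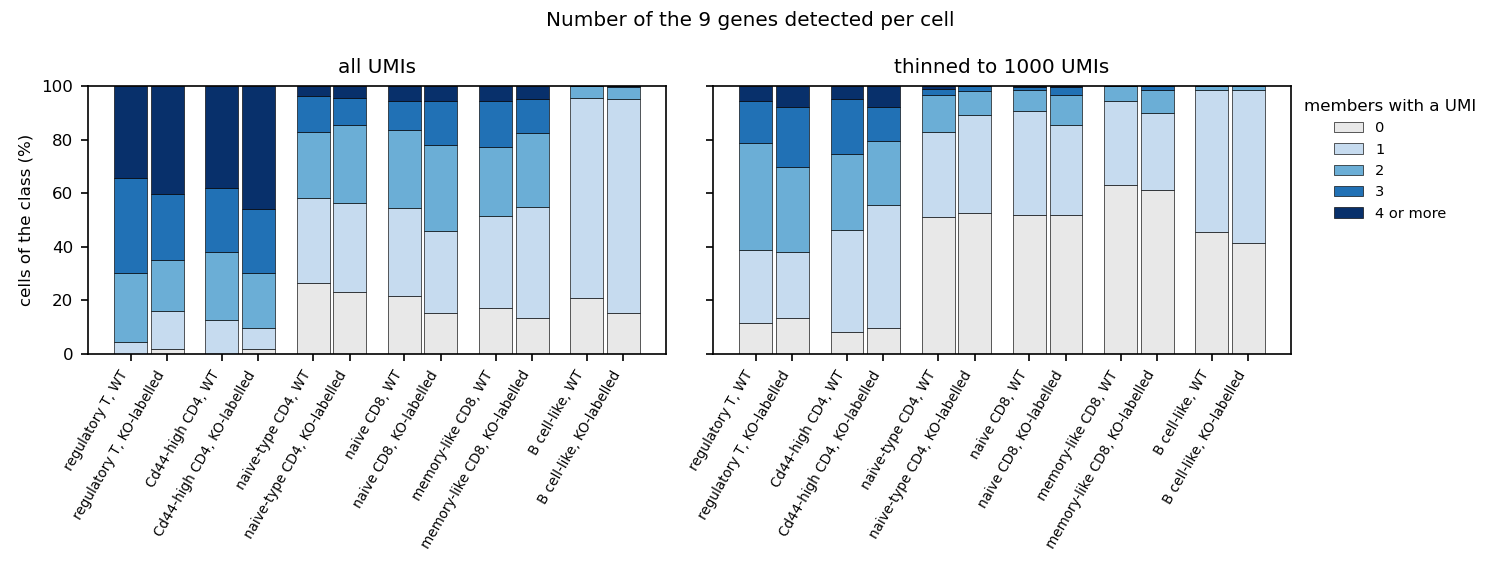
Share of cells (%) with UMIs of 0, 1, 2, 3 or at least 4 of the 9 genes (light to dark) in 6 classes of each library, with all UMIs (left) and with each cell thinned to 1000 UMIs (right). Regulatory T and Cd44-high CD4 cells have the largest dark parts of the 6 classes shown in both panels, and most B cells carry 1 member, which for most of them is Btla.

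Likeness of pattern was measured as Pearson's r of log2(CPM + 10) over 18 points, the 9 classes with at least 50 cells in each library. The points share 2 libraries and large differences between B, T and endothelial cells, so high values are common, and no p is given. The genes most like Tox were Icos (r = 0.989), Rgs10 (r = 0.989) and Cd28 (r = 0.985). Those most like Ctla4 were Izumo1r (r = 0.958), Tnfrsf18 (r = 0.944) and Icos (r = 0.944). For Tigit they were Ikzf2 (r = 0.925), Tnfrsf1b (r = 0.922) and Ntng2 (r = 0.909), for Btla Map4k1 (r = 0.962), Irf4 (r = 0.959) and Stap1 (r = 0.950) and for Cd226 Arl4c (r = 0.973), Themis (r = 0.970) and Cd3d (r = 0.967). Icos was most like Tox (r = 0.989), Smc4 (r = 0.981) and Rgs10 (r = 0.975). Pdcd1, Lag3 and Havcr2 had too few UMIs for this measure.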

How the data were processed

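Per the file headers, the authors made the deposited files with the BD Rhapsody WTA Analysis Pipeline (version 1.11), which lists whole-number counts of reads, of molecules and of error-corrected molecules for every barcode and gene. The reference was mm10, per the submitters' processing notes, and reads in introns were counted. Error-corrected molecules were used here as UMI counts, with no normalization beforehand.

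Barcodes above the inflection of the UMI curve (1263 UMIs for WT and 1278 for KO-labelled) were taken as cells if they had at least 200 genes and at most 25% mitochondrial UMIs. Scrublet marked 27 and 31 cells as doublets, which were removed. The remaining cells were clustered with scanpy 1.11.5 (2000 variable genes without the 9 members, 30 components, 15 neighbours, Leiden resolution 1). Clusters were named by their mean marker scores, with limits set after the clusters had been seen, so class sizes may differ from those of other analyses. Cells were assigned to a sex by Xist and Y-linked UMIs.

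A level is the sum of a gene's UMIs in the cells of 1 class and library over the class total. All 9 members are named. The pathway lists, the members and the rule for naming other genes were chosen with earlier results of these data known. A gene was counted in a comparison with at least 20 UMIs over both libraries. A count of 0 was set to 3 counts in ratios, and a class at 0 was never called higher. With 1 library per genotype no test was run, and no p-value is given. Exact intervals (scipy 1.17.1) cover counting error only. Their calculation was checked on counts simulated with counting error alone. That check cannot show how the intervals hold where the UMIs of a gene gather in few cells. For shares of cells with a UMI, each cell was also thinned to 1000 UMIs. Alternatives changed the doublet, mitochondrial and depth filters, the resolution, the variable genes, the class definition, the error correction, the weighting, the totals, the sex of the cells and the thresholds. Promoter sequences are from RefSeq (GRCm38.p6) and gene positions from GENCODE on GRCm38. The sequence and position of Cd226 are not reported here.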

Additional observations from a re-analysis of the deposited data

Results flagged for a closer look

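For Ctla4 and Icos, the ratio of KO-labelled over WT lay above 1 in some T cell classes and below 1 in others, each with a counting interval that does not include 1. The ratio of Ctla4 was 1.399 in naive-type CD4 cells and 3.56 in innate-like T cells, against 0.755 in conventional CD4 cells as a whole and 0.704 in their Cd44-high cluster. The innate-like value (1.36 to 11.8) rests on 5 WT UMIs in 3 of 25 cells and 29 KO-labelled UMIs in 9 of 31 cells. The ratio of Icos was 1.27 in Cd44-high CD4 cells and 1.77 in a mixed class of T cells led by interferon genes, against 0.782 in conventional CD4 cells, 0.796 in naive-type CD4 cells and 0.855 in regulatory T cells. The whole conventional CD4 class contains both of its subsets, so these values are not independent of each other. These differences between classes were not tested, and each rests on 1 library per genotype.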

How the results depend on the processing

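No paired analysis was possible because each genotype has 1 library. The settings that left out barcodes found in both libraries, took 1 CD4 subset alone or left out naive-type cells with Foxp3, Il2ra or Cd8a UMIs were chosen after seeing the data. Of 25 ratios of a member in 1 of the 5 lymphocyte classes, 4 were at least 1.5-fold higher and 2 lower. Of all genes, 7.54% (naive CD8) to 26.4% (NK-like) were higher and 7.71% to 21.3% lower in the same classes. The counts of members are thus not read as a result about them. The number lower was 1 with doublets kept, with molecules before error correction, with cells weighted equally, with at least 2000 UMIs per cell and without cells holding Cxcr5, Bcl6 or Il21. It was 0 with at most 10% mitochondrial UMIs, at 50 UMIs or at 2-fold, and 4 with the members among the variable genes. The number higher was 2 in female cells and at 50 UMIs, and 7 at 10 UMIs. The median log2 ratio of the members in naive CD8 cells went from -0.04 to 0.38 and in memory-like CD8 cells from 0.16 to -0.29 when classes were gated on marker UMIs. In conventional CD4 cells it went from -0.35 to 0.079 in naive-type and 0.11 in Cd44-high cells alone. Under the gate the log2 ratio of Pdcd1 in conventional CD4 cells became 0.73 and that of Cd226 in NK-like cells 0.14. The Pdcd1 log2 ratio was 0.015 in the Cd44-high cluster alone. The WT log2 ratio of regulatory T over conventional CD4 cells became -1.21 for Pdcd1 with at most 10% mitochondrial UMIs and -0.77 for Icos in female cells. Over Cd44-high cells alone, the log2 ratio for Pdcd1 was -1.68 in WT and -0.27 in KO-labelled cells, and for Icos -0.30 in KO-labelled cells. The cause of these changes was not tested. Among the summary values recomputed, 119 stayed within 1.5 times (counts) or between the members' median interval bounds (medians), and 16, all given here, did not. Of the other values recomputed, 515 stayed the same, 120 moved and 8 reversed, and not all of these are given here. In female cells 19 of them moved, 1 reversed and 11 stayed the same. With cells thinned to 2000 UMIs, 39 moved and 51 stayed the same. Genes with few UMIs (Lag3, Havcr2, Tigit and Pdcd1) are limited by depth, and the 7 WT NK-like cells allow no firm level.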
